A study of Mus musculus with 6 samples.

Results

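The genes described here are the Wnt ligands, the Frizzled receptors, their co-receptors and secreted antagonists, the R-spondins with their Lgr receptors, and the downstream genes Axin1, Axin2, Lef1 and Tcf7. They were taken by symbol from a table of 20138 genes, and 49 genes matched. The families were 19 Wnt ligands, 10 Frizzled receptors, 4 co-receptors (Lrp5, Lrp6, Ror1, Ror2), 8 secreted antagonists (Sfrp, Dkk and Wif1), 4 R-spondin or Lgr genes, and 4 genes of the Axin and TCF groups. All 49 are reported, since no filter on low values was applied here. Of them, 39 had a mean expression of at least 0 on the log2 CPM scale (reads scaled by library size, averaged over all libraries). Of the Dkk family only Dkk1, Dkk2 and Dkk3 were among the 20138 genes.

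The kidneys came from 6 animals at postnatal day 35, and each of 2 genotypes was represented by 3 of them. Pkd2-KO animals carried Pkhd1Cre and floxed Pkd2 (Pkd2 F/F), so that polycystin-2, the cation channel encoded by Pkd2, is lost where the Pkhd1 promoter drives Cre, mainly in tubule epithelium. Pkd2-miR-214-KO animals carried the same alleles and, in addition, miR-214null. Floxed Pkd2 and Cre were thus shared by all animals, Pkd2-intact kidneys were not analysed here, and the RNA came from whole kidney, in which cells that do not express the Cre keep Pkd2. The labels give neither sex nor litter of the animals.

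Wnt proteins are secreted lipid-modified ligands that bind Frizzled receptors. In the canonical branch they also engage Lrp5 or Lrp6, which stops the Axin and Apc complex from degrading beta-catenin, and beta-catenin then acts with Lef1 and Tcf factors on target genes such as Axin2. In the developing kidney Wnt9b from the ureteric bud and Wnt4 in the mesenchyme drive nephron formation, and Wnt7b from the collecting duct patterns the medulla. Sfrp proteins and Wif1 bind Wnt ligands outside the cell, Dkk1 blocks Lrp5 and Lrp6, and R-spondins acting through Lgr receptors keep Frizzled receptors at the surface.

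The microRNA missing from 1 genotype has 2 mature arms, shown here because they define the sequence matches counted below, with bases 2 to 8 (the seed) in capitals. Both lie on the plus strand of GRCm38.p6, per RefSeq, the first at chr1:162223438-162223459 and the second at chr1:162223397-162223418.
mmu-miR-214-3p: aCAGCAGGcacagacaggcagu
mmu-miR-214-5p: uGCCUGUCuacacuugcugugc
A match to the seed of the 3p arm reads CCTGCTG on the transcript, and a match to that of the 5p arm reads GACAGGC. Matches were sought on the sense strand of the longest annotated 3' UTR of each gene in GENCODE M21, whose assembly is that of mm10.

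Of the 49 Wnt pathway genes, 17 (34.7%) held a 7-base match to miR-214-3p, against 3601 of 16900 genes with an annotated 3' UTR (21.3%). Their 3' UTRs were also longer, with a median of 1712 bases against 1041, and the matches per kb were 0.202 and 0.184. For miR-214-5p the counts were 10 of 49 (20.4%) and 1588 of 16900 (9.40%), with 0.101 and 0.068 matches per kb. The 3p matches were in 9 ligands, 4 Frizzled receptors, 3 co-receptors and 1 antagonist (Dkk2), and in none of the R-spondin, Lgr, Axin and TCF genes. Such a match is a description of the annotated sequence, not a site shown to be used.

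Wnt2, Ror2 and Fzd8 each held 2 matches to the 3p arm. Wnt2 and Ror2 also each held a match to the 5p arm. The 3 matches of Wnt2 lay within 96 bases of a 3' UTR of 874 bases. The stretches of Wnt2 and Ror2 are shown, with 2 matches each, and those of Fzd8 are not. Those of Wnt7b, Lrp6 and Ctnnb1 are shown because these are the ligand, the co-receptor and the central effector with high expression. Capitals mark the match, and the positions are on mm10, all on the minus strand except Ctnnb1.
Wnt2, first match, chr6:17989632-17989661: caggactgggaaccaCCTGCTGcacataag
Wnt2, second match, chr6:17989571-17989600: gatgtcacctctcttCCTGCTGatttcttt
Ror2, first match, chr13:53110178-53110207: gcctggagcaccagcCCTGCTGtgaccaga
Ror2, second match, chr13:53109745-53109774: atgctccgtgagcccCCTGCTGgcggagga
Wnt7b, chr15:85536643-85536672: ccttcaccctcccagCCTGCTGccaacctc
Lrp6, chr6:134449302-134449331: tggctgtgggatgacCCTGCTGgggactag
Ctnnb1, chr9:120960422-120960451: ccaaagttgttgtaaCCTGCTGtgatacaa

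The comparison asked which of these transcripts differed in Pkd2-deficient kidneys when miR-214 was missing. The values are fitted log2 folds and likelihood ratio tests (glmLRT of edgeR) from the authors' deposited table, with 3 animals per genotype behind each. A positive fold means that the transcript was more abundant in Pkd2-miR-214-KO. Values per library were not analysed here, so the spread between animals enters through the authors' test, and each error is the approximate standard error (SE) implied by the fold and its likelihood ratio. The depth of the libraries is unknown. In whole kidney, fewer cells of a type and less RNA per cell cannot be told apart.

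None of the 49 genes passed an adjusted p of 0.05 per the authors' deposited table (glmLRT with Benjamini-Hochberg adjustment), against 25 of all 20138 genes (0.124%). Without adjustment, 3 of the 49 (6.12%) had a p under 0.05, beside 4.82% of all genes. Of these 3, 1 was higher and 2 were lower in Pkd2-miR-214-KO, beside 3.1% and 1.71% of all genes. Among the 39 genes with a mean log2 CPM of at least 0 the count was 2, beside 4.08% of all genes at that level, and 1 of the 49 had a p under 0.01, beside 1.68%. The 3 were the antagonists Sfrp1, Sfrp4 and Dkk1. The median log2 fold per the authors' deposited table was -0.24 over the 49 genes and 0.00 over all genes, with 20 folds positive (40.8%, beside 49.8% of all genes) and 29 negative (beside 48.2%). That median was -0.023 over the 39 genes with a mean log2 CPM of at least 0. Of these, 18 folds were positive (46.2%, beside 49.6% of all genes at that level) and 21 negative (53.8%, beside 50.4%). Below that level 8 of the 10 genes had negative folds. Negative folds numbered 9704 among all 20138 genes and 7315 among the 14520 genes at or above that level. Among the remaining genes, below it, the negative share was thus smaller than 8 of 10.

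**Figure D1:**
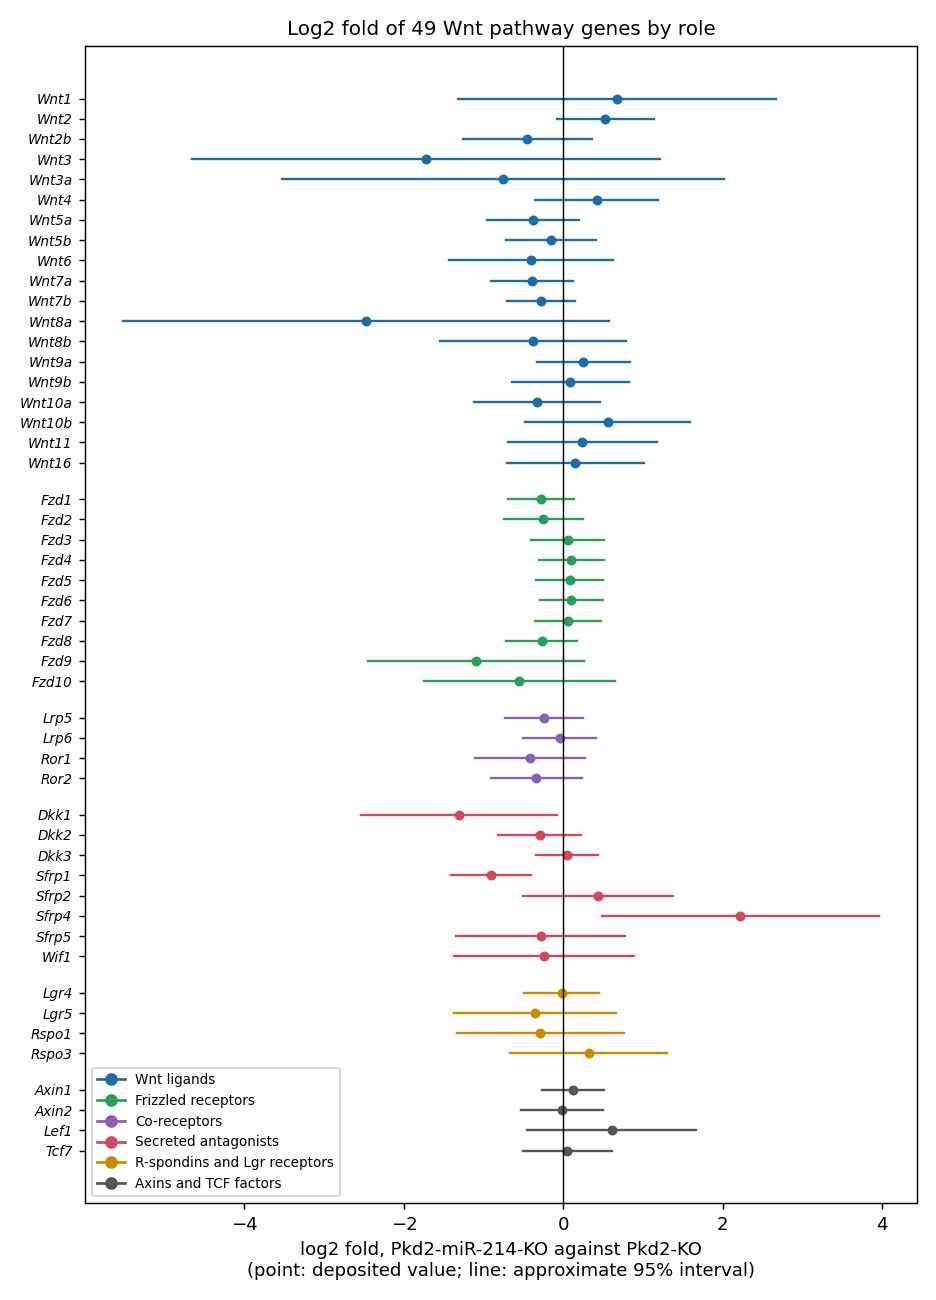
Log2 fold between the genotypes (x axis) for each of the 49 genes, grouped by role. Points are the deposited values and lines the approximate 95% intervals, of which 3 exclude 0: Sfrp1 and Dkk1 on the negative side and Sfrp4 on the positive side.

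The secreted antagonists held the 3 smallest p-values of the 49 genes, although the scarce ligand Wnt8a had a larger fold. Sfrp1, a soluble Wnt-binding protein with a Frizzled-like domain (ENSMUSG00000031548.7, chr8:23411502-23449632 on mm10), was the Wnt pathway gene with the smallest p. The authors' deposited table gave it a log2 fold of -0.91 ± 0.26 (SE), or 1.87-fold lower, with p = 0.000381 and adjusted p = 0.166 (glmLRT). It ranked 45 of 20138 genes by p and had a mean log2 CPM of 7.84. Its approximate 95% interval ran from -1.40 to -0.41. The SE of Sfrp1 lay at the 63.0 percentile of the 200 genes nearest in expression, so its spread was ordinary for its level.

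Sfrp4, a relative of Sfrp1 with the same kind of Wnt-binding domain (ENSMUSG00000021319.7, chr13:19623104-19632994), had a log2 fold of 2.22 ± 0.89 per the authors' deposited table, or 4.66-fold higher, with p = 0.0121 and adjusted p = 0.648 (glmLRT). Its SE lay at the 99.5 percentile of the 200 genes nearest in expression. With that SE, a log2 fold of 3.56 would have been needed to pass. The large fold of Sfrp4 therefore came with an unusually large error. Sfrp2 had 0.43 ± 0.48 (95.5 percentile) and Sfrp5 -0.29 ± 0.54 (87.0 percentile) per the authors' deposited table.

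Dkk1, which binds Lrp5 and Lrp6 and blocks canonical signalling (ENSMUSG00000024868.8, chr19:30545863-30549665), had a log2 fold of -1.31 ± 0.63 per the authors' deposited table, or 2.48-fold lower, with p = 0.0371 and adjusted p = 0.947 (glmLRT). Its mean log2 CPM was -0.98, so few reads stood behind this value. Its relatives were more abundant and lay nearer to 0. In the authors' deposited table Dkk2 had a log2 fold of -0.30 ± 0.27 at a mean log2 CPM of 5.71, and Dkk3, the divergent member of the family, had 0.04 ± 0.20 at 6.39. Wif1, a Wnt-binding antagonist unrelated to both families, had -0.24 ± 0.58 at 0.19 per the authors' deposited table. The 3' UTRs of Sfrp1 (3144 bases), Sfrp4 (2622 bases) and Dkk1 (1322 bases) held 0 matches to the seed of either miR-214 arm, also with the shorter 6-base match.

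Stromal and other markers were set beside these values. The fibroblast and pericyte list had 3 of 9 folds positive and a median of -0.23, with 0 genes past the adjusted threshold per the authors' deposited table. Its proteoglycan genes Dcn (1.18 ± 0.31) and Lum (1.21 ± 0.47) had positive folds, as did Postn (0.13 ± 0.33). Its receptor genes Pdgfra (-0.21 ± 0.22) and Pdgfrb (-0.23 ± 0.22) and the collagen gene Col1a1 (-0.46 ± 0.33) had negative folds per the authors' deposited table. The intervals of these 3 genes included 0, unlike that of Sfrp1. All 4 smooth muscle markers had negative folds, with a median of -0.24. The part of cell composition in the Sfrp and Dkk values was not tested.

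Wnt ligands had 8 positive and 11 negative folds around a median of -0.28, and 0 of the 19 had an unadjusted p under 0.05. Over the 12 ligands with a mean log2 CPM of at least 0, the median was -0.03, with 6 positive and 6 negative. Wnt2 had the smallest p of the ligands, with a log2 fold of 0.53 ± 0.31 (p = 0.0908, adjusted p = 1 by glmLRT) per the authors' deposited table and an interval from -0.08 to 1.14. Wnt7b was the most abundant ligand per length, with a mean level of 4.07 log2 CPM per kb of exon, and had a log2 fold of -0.28 ± 0.22 per the authors' deposited table. Wnt9a followed at 3.38 log2 CPM per kb and Wnt4 at 3.26.

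The nephron-inducing ligands Wnt4 and Wnt9b, and Wnt9a beside them, had small positive folds with wide errors. In the authors' deposited table Wnt4 had a log2 fold of 0.42 ± 0.40, Wnt9b 0.09 ± 0.37 and Wnt9a 0.25 ± 0.30. For these 3 the SE lay at the 97.5, 98.5 and 92.5 percentiles of the 200 genes nearest in expression, so their errors were larger than those of most genes of their level. Wnt4 is also made by the adrenal cortex, and the adrenal markers had 6 of 6 positive folds with a median of 3.82. Of these only Dbh passed (5.27 ± 1.31, adjusted p = 0.0475 by glmLRT), at a mean log2 CPM of -2.26 per the authors' deposited table. The steroid transport gene Star (0.79 ± 0.60) did not pass per the authors' deposited table. Star was the 1 adrenal marker with a mean log2 CPM of at least 0 (2.29), while Wnt4 had 5.33. The part of adrenal tissue in the value of Wnt4 was not tested.

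Wnt5a, Wnt5b and Wnt11 are known for beta-catenin-independent signalling, and their folds did not share a sign. In the authors' deposited table Wnt5a had -0.38 ± 0.29 and Wnt5b -0.15 ± 0.29, and their receptor tyrosine kinases Ror1 and Ror2 had -0.42 ± 0.35 and -0.34 ± 0.29. Wnt11 had 0.24 ± 0.48 per the authors' deposited table. All 5 intervals included 0. Wnt7a, a close relative of Wnt7b, had -0.39 ± 0.26, while Wnt16 had 0.15 ± 0.44 and Wnt10a -0.33 ± 0.40 per the authors' deposited table. Wnt2b, a relative of Wnt2, had -0.45 ± 0.42, the opposite sign to Wnt2, per the authors' deposited table.

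**Figure D2:**
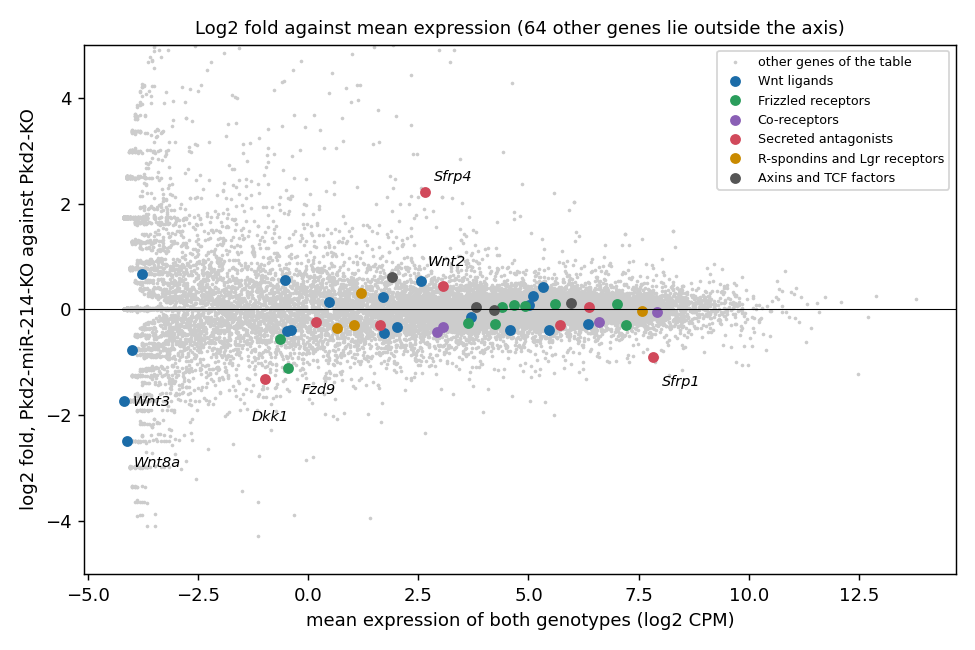
Log2 fold (y axis) against mean expression in log2 CPM (x axis) for the 49 genes (coloured by role) and all other genes of the table (grey). Sfrp1 lies at the lower edge of the genes of its level, while Wnt3 and Wnt8a lie in the stripes formed by genes with hardly any reads.

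The largest ligand folds belonged to genes with hardly any reads. Wnt8a had a log2 fold of -2.48 ± 1.55 at a mean log2 CPM of -4.12, and Wnt3 -1.72 (interval -4.66 to 1.21) at -4.19 per the authors' deposited table. The lowest mean log2 CPM of the table is also -4.19. Among the 1172 genes with a mean log2 CPM under -4, 520 others had a fold within 0.05 of the size of that of Wnt3, and 124 of that of Wnt8a. Such folds are steps that a gene near 0 reads can take, and they depend on the fit. Wnt1 (0.68 ± 1.02) and Wnt3a (-0.76 ± 1.42) were similarly scarce per the authors' deposited table. Wnt6 (-0.41 ± 0.52), Wnt8b (-0.38 ± 0.60) and Wnt10b (0.55 ± 0.53) complete the 7 ligands with a mean log2 CPM under 0 per the authors' deposited table.

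Several ligand genes lie side by side in the genome, and 4 pairs were within 100 kb of each other on mm10. Wnt6 and Wnt10a, 6193 bases apart on chromosome 1, had log2 folds of the same sign, as did Wnt1 and Wnt10b, 11706 bases apart on chromosome 15. The signs were opposite for Wnt3a and Wnt9a (16175 bases apart) and for Wnt3 and Wnt9b (24328 bases apart), both on chromosome 11. Wnt1, Wnt3 and Wnt3a, each in a different pair of these 4, were near 0 reads.

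Frizzled receptors had 5 positive and 5 negative folds around a median of -0.10, and per the authors' deposited table the 8 receptors with a mean log2 CPM of at least 0 lay between -0.28 and 0.10. The approximate 95% intervals of these 8 all lay within -1 and 1, which is a 2-fold change in either direction. Fzd1 had the highest level, 5.15 log2 CPM per kb, with a log2 fold of -0.28 ± 0.21 per the authors' deposited table. Fzd4, a receptor of vessels and epithelia, followed at 4.27 log2 CPM per kb with a log2 fold of 0.10 ± 0.21. Fzd6 (0.10 ± 0.20), Fzd5 (0.08 ± 0.21), Fzd7 (0.06 ± 0.21) and Fzd3 (0.05 ± 0.23) were close to 0 per the authors' deposited table. Fzd8 (-0.27 ± 0.23) and Fzd2 (-0.25 ± 0.25) lay beside Fzd1. Fzd9 (-1.10 ± 0.69, p = 0.111, adjusted p = 1 by glmLRT) and Fzd10 (-0.55 ± 0.61) had larger folds per the authors' deposited table, at mean log2 CPM of -0.45 and -0.65.

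Among the canonical co-receptors, Lrp6 had a log2 fold of -0.05 ± 0.23 and Lrp5 -0.25 ± 0.25 per the authors' deposited table. Lrp6 was the more abundant, at 4.15 against 3.32 log2 CPM per kb. Lgr4, a receptor for R-spondins, had a log2 fold of -0.02 ± 0.24 per the authors' deposited table and a level of 5.01 log2 CPM per kb. Lgr5, a stem cell marker in other epithelia, was scarce at -2.71 log2 CPM per kb and had a log2 fold of -0.36 ± 0.52. The R-spondins Rspo1 (-0.29 ± 0.54) and Rspo3 (0.32 ± 0.50) had opposite signs and intervals that included 0 per the authors' deposited table.

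Axin2 is a feedback inhibitor that beta-catenin itself induces and is often read as a gauge of canonical signalling. The authors' deposited table gave it a log2 fold of -0.02 ± 0.26 (p = 0.942, adjusted p = 1 by glmLRT), with an interval from -0.53 to 0.50. Axin1, the constitutive scaffold of the degradation complex, had 0.12 ± 0.20 and Tcf7 0.05 ± 0.29 per the authors' deposited table. Lef1 had a log2 fold of 0.61 ± 0.54 and an interval from -0.45 to 1.67. Lef1 and Tcf7 are also expressed by T cells, whose markers had 1 of 6 positive folds and a median of -0.29 per the authors' deposited table. The part of T cells in the values of Lef1 and Tcf7 was not tested.

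**Figure D3:**
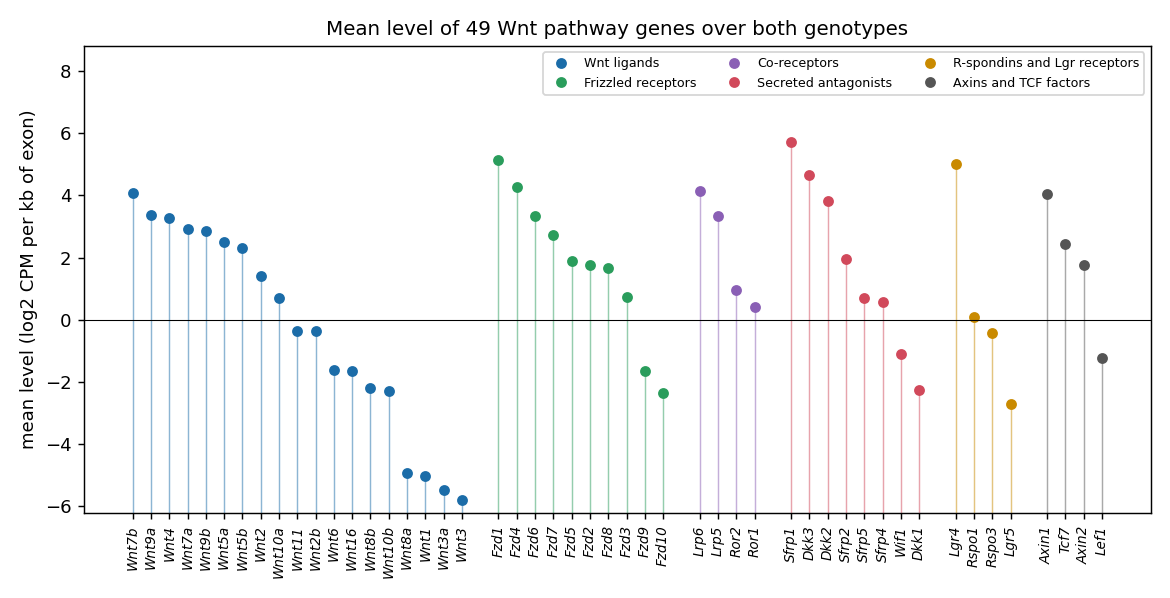
Mean level over both genotypes in log2 CPM per kb of exon (y axis) for the 49 genes, ordered by level within each role. Sfrp1 has the highest level and the ligands Wnt8a, Wnt1, Wnt3a and Wnt3 the lowest.

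Per length, levels spanned from 5.71 log2 CPM per kb for Sfrp1 to -5.81 for Wnt3. After Sfrp1 came Fzd1, Lgr4, Dkk3 (4.64) and Fzd4. The 5 most abundant genes were thus secreted modulators and receptors, and the first ligand, Wnt7b, was in place 7 of 49. Levels used the merged exon length of each gene in GENCODE M21. Their spread over animals is not known, so the order of close neighbours was not tested. Exons of 9 of the 49 genes overlap a gene annotated on the opposite strand, among them Wnt5a, Wnt7b, Sfrp2, Axin2 and Lef1, and whether strand was used in counting is not given in the sources used here.

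The precision behind these folds differed widely. For 23 of the 49 genes the approximate 95% interval lay within a 2-fold change in either direction. Among genes that passed, the smallest likelihood ratio was 16.1, and at its SE each Wnt pathway gene would have needed a log2 fold of 0.79 (Axin1) to 6.24 (Wnt8a) to reach it, with a median of 1.41. For 12 genes less than a 2-fold change would have sufficed. Sfrp1 came nearest, with a size of 0.91 where 1.02 was needed.

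**Figure D4:**
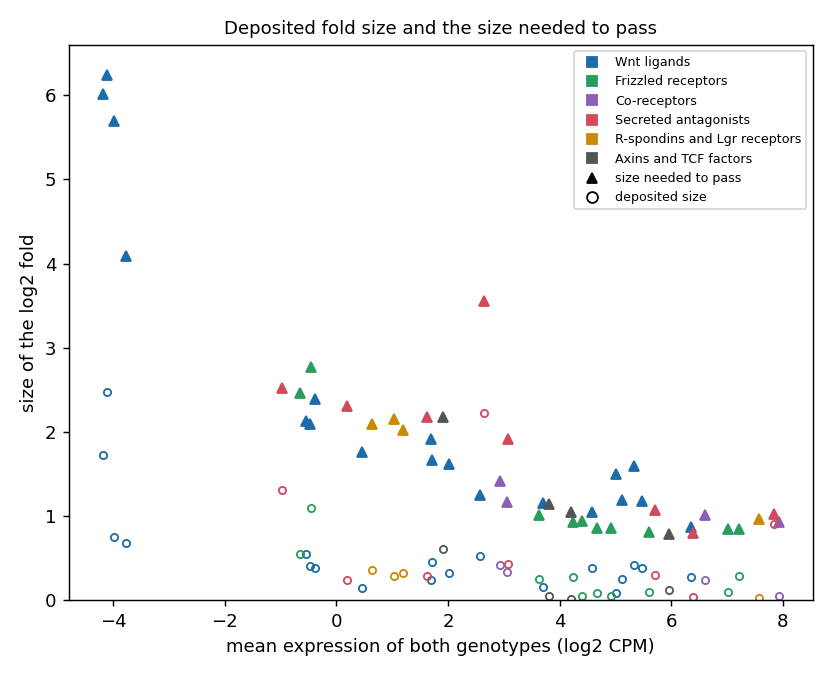
Size of the log2 fold (y axis) against mean log2 CPM (x axis) for the 49 genes, with circles for the deposited size and triangles for the size that would have passed at the gene's approximate SE. Every circle lies below its triangle, and Sfrp1 at 0.91 against 1.02 has the narrowest gap.

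Genes with a 3' UTR match to miR-214-3p were compared with the rest as a description. The 17 Wnt pathway genes with a match had a median log2 fold of -0.25 per the authors' deposited table and the other genes among the 49 had -0.20. Of the 17, 7 folds were positive and 10 negative, from -1.72 (Wnt3) to 0.55 (Wnt10b), and 0 had an unadjusted p under 0.05. Over all genes the medians were -0.01 with a match and 0.00 without. Among the genes with 2 matches, Wnt2 had 0.53 ± 0.31, Ror2 -0.34 ± 0.29 and Fzd8 -0.27 ± 0.23 per the authors' deposited table, so the signs differed. For miR-214-5p the medians among the 49 genes were 0.01 with a match and -0.25 without. Over all genes they were -0.02 and 0.00.

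Beyond the 49 genes, 5 lists of other pathway genes held 100 genes of the table, each counted once, of which 1 passed the adjusted threshold upward and 0 downward, beside 0.104% and 0.0199% of all genes. Without adjustment 9 had a p under 0.05 (4 higher and 5 lower), beside 4.82% of all genes (3.1% higher and 1.71% lower). The median log2 folds were 0.08 for ligand modification and release (4 genes), -0.17 for other surface and extracellular genes (21 genes), -0.03 for the cytoplasmic and nuclear chain (33 genes), -0.04 for the planar polarity branch (17 genes) and -0.10 for genes described as beta-catenin targets (30 genes). The gene that passed was Mmp7, a matrix metalloproteinase, with 2.98 ± 0.62 (adjusted p = 0.00267, glmLRT) per the authors' deposited table. Of the 30 genes of its list, 19 had negative folds. Without adjustment 5 of the 30 (16.7%) had a p under 0.05 by glmLRT, 3 higher and 2 lower. Besides Mmp7 and Agtr1a these were Vegfa (0.55 ± 0.26), Wisp1 (-0.64 ± 0.28) and Ascl2 (1.61 ± 0.79) per the authors' deposited table. Ascl2 had a low mean log2 CPM of -1.65.

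Other named genes of these lists did not pass. Daam2, a formin that works with Dishevelled, had the next smallest p, with a log2 fold of -0.95 ± 0.28 (p = 0.000733, adjusted p = 0.202 by glmLRT) per the authors' deposited table. Celsr3, a planar polarity cadherin, had 1.67 ± 0.77 at a low mean log2 CPM of -1.22. Reck (-0.47 ± 0.23) and Gpr124 (-0.50 ± 0.24), which together help cells respond to Wnt7a and Wnt7b, had an unadjusted p of 0.0384 and 0.0418 and an adjusted p of 0.962 or more by glmLRT per the authors' deposited table. Agtr1a, the angiotensin receptor gene, had -0.59 ± 0.24. The Dishevelled inhibitors Nkd1 (-0.32 ± 0.24) and Nkd2 (-0.50 ± 0.31) had negative folds per the authors' deposited table. Of these, Nkd1 is also in the list of genes described as beta-catenin targets. Trabd2b, which inactivates Wnt ligands, had -0.38 ± 0.25 and Porcn, the acyltransferase that lipid-modifies them, 0.18 ± 0.32 per the authors' deposited table. Ctnnb1, which encodes beta-catenin, had 0.07 ± 0.27 (adjusted p = 1).

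**Figure D5:**
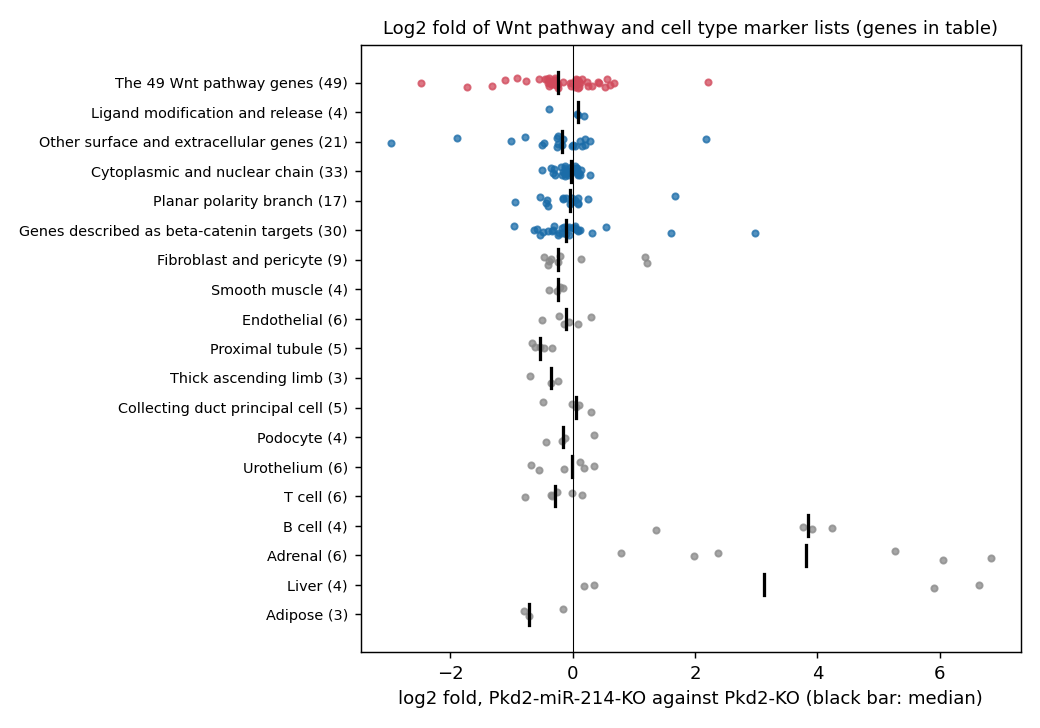
Log2 fold (x axis) of the 49 genes (red), the 5 lists of other Wnt pathway genes (blue) and the cell type marker lists (grey), with a black bar at each median. The pathway medians lie between -0.24 and 0.08, while the B cell, adrenal and liver medians lie above 3.

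As a check of the labels, Mir214 had a log2 fold of -7.62 ± 1.08 per the authors' deposited table, and since its sign set the direction of all folds it is no independent check. Pkd2, floxed in both genotypes, had -0.11 ± 0.23 (adjusted p = 1). Kidney markers were high, with a mean log2 CPM of 11.4 for Umod, 11.3 for Slc34a1 and 8.39 for Aqp2. Marker lists of B cells (median 3.84) and liver (median 3.13) had positive folds for all members, with 0 genes past the adjusted threshold in either list. Xist, the RNA of the silenced X chromosome of females, also had a positive fold (10.21 ± 2.36) and passed (adjusted p = 0.0168, glmLRT) per the authors' deposited table. Endothelial (-0.10), urothelial (-0.01), podocyte (-0.16), principal cell (0.05), thick ascending limb (-0.35), proximal tubule (-0.54) and adipose markers (-0.71) had medians with 0 genes past the adjusted threshold. Since the labels give no sex, sex and genotype cannot be told apart in these fitted folds, for the Wnt pathway genes as well. The part of the marker differences in the Wnt pathway values was not tested.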

How the data were processed

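Whole kidneys were frozen and RNA libraries made with a stranded total RNA kit, per the labels' protocols, while the series text names polyadenylated RNA. The genome build mm10 and the tools TopHat2 2.0.12 and edgeR come from the submitters' processing notes. Per the file headers, the authors deposited for each gene a p-value with its adjusted p-value, a log2 fold change, a mean log2 CPM and a likelihood ratio. This ratio, the authors' score for each gene, has 1 degree of freedom. How reads were counted, filtered and normalized is not given in the sources used here. The planned test on counts gave way to these deposited tests, since the table holds no counts. The approximate SE is the size of the log2 fold over the square root of the likelihood ratio, and 1.96 SE give the interval. It is poor at low counts. How well the approximate SE holds for the authors' fits was not tested. The p-values test the genotype term against the variation that the authors' fit estimated from these animals. Nothing says whether animals shared litters.

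The Wnt pathway genes, lists and rules were chosen with earlier results of these data known. Values are named for genes with p under 0.05, for the 2 smallest p and 2 highest mean levels per role, and for the 3 largest folds per direction, and for most others. For each of the 5 pathway lists the 2 smallest p are named, and marker lists are given by medians with examples chosen after their values were seen. All 49 symbols matched GENCODE M21. Wnt2b, Wnt7a and other members outside that rule, as well as Ctnnb1, Vegfa, Wisp1 and Ascl2, were named after their values were seen. Calculations used Python 3.11.15 with scipy 1.17.1, numpy 2.4.6 and pandas 2.3.3, and figures matplotlib 3.10.9.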

Additional observations from a re-analysis of the deposited data

How the results depend on the processing

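No Wnt pathway gene passed with an adjusted p under 0.1, with Holm adjustment, or with adjustment over the 14520 genes of mean log2 CPM of at least 0, where the adjusted p of Sfrp1 was 0.170. With p under 0.01 without adjustment, 1 gene (Sfrp1) remained of 3. The median log2 fold moved from -0.24 to -0.023 over the 39 genes of mean log2 CPM of at least 0, and to -0.15 with Rspo2, Rspo4, Lgr6, Ryk, Tcf7l1 and Tcf7l2 added. With 6-base matches 28 genes held a miR-214-3p match (57.1%, against 48.9% of all genes with a 3' UTR), in place of 17, and the matches per kb were then fewer than over all genes (0.596 against 0.681). A t multiplier on 4 degrees of freedom made the intervals of Sfrp4 (-0.24 to 4.68) and Dkk1 (-3.06 to 0.43) include 0. It also took those of Wnt5a (-1.20 to 0.44) and Ror2 (-1.15 to 0.47) beyond a 2-fold change. Fewer than 23 intervals then lay within a 2-fold change in either direction. In all, 8 alternatives left a summary value within 1.5 times of the main one, including those of the adjusted threshold given first. Subtracting the median of all genes was among them and could not change a value, since that median was 0.00. Leaving out an animal and the DESeq2 alternative were not run, since both need counts per library. No paired analysis was possible because the result comes from deposited tests and the labels pair no animals.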
